A study of Mus musculus with 8 samples.

Results

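Heart muscle contracts when calcium enters through the L-type channel and releases more calcium from the sarcoplasmic reticulum through the ryanodine receptor. It relaxes when the SERCA pump returns calcium to the reticulum and the sodium-calcium exchanger moves the rest out of the cell. Lower SERCA2 is a known feature of failing ventricles. The 10 genes described here encode this cycle. They are the pump Atp2a2 and its inhibitor Pln, the luminal calcium binders Casq2 and Hrc, the release channel Ryr2 with Trdn and Jph2 of the junction, the L-type channel subunits Cacna1c and Cacnb2, and the exchanger Slc8a1. They were chosen by symbol from the 35275 genes of the deposited table, and all 10 were found and all 10 passed the filter on low values.

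PolyA RNA of heart ventricles was sequenced in 4 mouse libraries labelled WT and 4 labelled RBX2iCKO, an inducible knockout of Rbx2. The Rnf7 gene encodes RBX2, a RING protein that works with cullin 5 in ubiquitin ligation. The Cre that deletes it is Mer-Cre-Mer, which tamoxifen activates and the cardiomyocyte αMHC promoter drives, and the treatment label of all 8 libraries is tamoxifen. All 8 titles begin with MCM, while the genotype label gives only WT or RBX2iCKO. Age, strain, sex and tamoxifen dose are not given in the labels. The comparison of the 4 RBX2iCKO with the 4 WT ventricles asks how the transcripts of the calcium cycle differ between them.

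The FPKM denominators held 18513924 to 22558094 fragments in WT and 18758692 to 23043686 in RBX2iCKO. Rnf7 was 37.3 FPKM ± 2.38 in WT against 7.15 FPKM ± 0.28 in RBX2iCKO (SD, n = 4 each, log2 difference -2.23, limma adjusted p = 5.8e-07). Esr1, whose ligand-binding domain is part of Mer-Cre-Mer, was 0.757 FPKM ± 0.883 in WT against 331 FPKM ± 51.5 in RBX2iCKO, so the transgene and the genotype cannot be told apart. The labels name cardiomyocytes as the cell type. The 12 ventricular cardiomyocyte markers summed to 44165 to 46095 FPKM in WT and 41608 to 48992 in RBX2iCKO, but markers of other cells were also present. The 9 fibroblast markers summed to 369 to 582 FPKM in WT and 1025 to 1721 in RBX2iCKO, and none was at 0. Of these markers, 9 of 9 passed the test as higher, beside 33.5% of all genes tested. Values of other cell types stand beside the last results.

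Transcripts of the pump, its inhibitor and the histidine-rich calcium binder fell in RBX2iCKO ventricles, and calsequestrin rose as deposited. Of the 10 genes, 3 were lower (Atp2a2, Pln and Hrc) and 1 was higher (Casq2) at an adjusted p under 0.05. Over the 13050 genes tested, 3.52% were lower and 33.5% were higher by the same limma test, 37.0% in all. The share of lower members was thus above that background and the share of higher members was not. The members were chosen with earlier results of these data known, so this difference is no independent support. It was not tested. In 2 members, Atp2a2 and Hrc, all RBX2iCKO libraries lay below all WT libraries, as in 3.79% of all genes, and in Casq2 they lay above, as in 34.0%. The median log2 difference was -0.22 over the 10 genes and 0.21 over all genes tested. Because the median over all genes lay above 0, each value is also given after median-of-ratios scaling, which brought the median of all genes to 0.02. After scaling 7 of the 10 were lower and 0 higher, beside 10.9% lower and 8.78% higher over all genes (19.7% in all), and the median over the 10 was -0.47. The 6 others as deposited, and the 3 others after scaling, did not pass the test, which does not show that they did not differ.

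The 10 transcripts took 2.90% ± 0.0965 of all counted fragments in WT against 2.09% ± 0.142 in RBX2iCKO (SD, n = 4 each). The WT libraries ranged from 2.83% to 3.04% and the RBX2iCKO libraries from 1.88% to 2.19%, without overlap. Atp2a2 alone accounted for 1.73% ± 0.0711 in WT against 1.06% ± 0.117 in RBX2iCKO. In ventricle RNA, fewer cells of a type and less RNA per cell cannot be told apart.

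**Figure D1:**
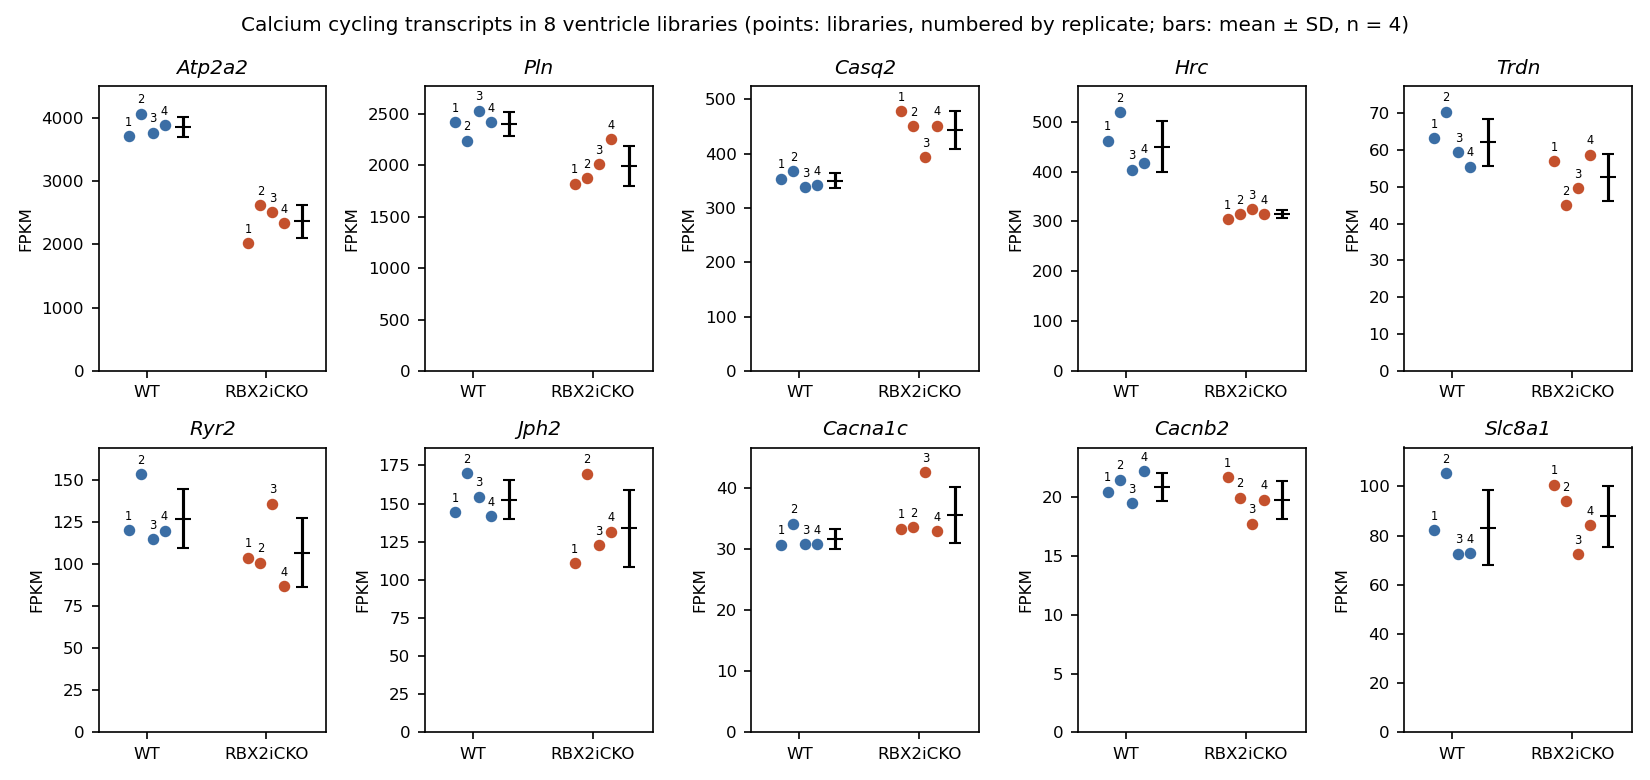
FPKM of the 10 calcium cycling transcripts (vertical axis, from 0) in 4 WT (blue) and 4 RBX2iCKO (orange) libraries, with points numbered by replicate and bars for the mean ± SD. For Atp2a2 and Hrc all RBX2iCKO points lie below all WT points, for Casq2 all lie above, and in the other 7 panels the groups overlap.

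Promoter letters are shown for the transcripts that passed the test as deposited and have a RefSeq entry, which are Casq2, Hrc and Pln. Each window is the 150 bases from 170 to 21 bases before the RefSeq start on GRCm38.p6, and all 3 lie on the plus strand. Positions are chr3:102086245-102086394 for Casq2, chr7:45335099-45335248 for Hrc and chr10:53337516-53337665 for Pln. Capitals mark the only motif match.
Casq2: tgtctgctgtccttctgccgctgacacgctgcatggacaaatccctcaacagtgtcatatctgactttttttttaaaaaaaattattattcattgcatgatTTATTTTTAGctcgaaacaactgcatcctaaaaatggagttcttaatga
Hrc: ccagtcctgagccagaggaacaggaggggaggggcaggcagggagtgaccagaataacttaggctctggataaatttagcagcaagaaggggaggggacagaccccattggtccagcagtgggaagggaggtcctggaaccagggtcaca
Pln: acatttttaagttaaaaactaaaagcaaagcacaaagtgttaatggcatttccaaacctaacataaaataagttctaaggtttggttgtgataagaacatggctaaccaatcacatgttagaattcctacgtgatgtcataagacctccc
The capitals in Casq2 are a match to the consensus of MEF2, a family of muscle transcription factors, 69 to 60 bases before the start. Matches were sought on both strands to the TATA box TATAAA, the GC box GGGCGG, the GATA factor element AGATAA, the nuclear receptor element AGGTCA, the MEF2 consensus and the CArG box. In 32851 windows of the same kind, the TATA box was found in 7.75%, the GC box in 26.4%, the GATA element in 5.92%, the nuclear receptor element in 8.76%, the MEF2 consensus in 1.75% and the CArG box in 0.962%. None of these letters occurred in the windows of Hrc and Pln. Over the 12 windows of the 8 members with an entry, the GC box occurred in 3, of Cacnb2, Cacna1c and Jph2. The nuclear receptor element occurred in 3 windows of 2 genes, Ryr2 and Jph2, since 1 Jph2 match lies in both of its overlapping windows. Atp2a2 and Trdn had no entry. These matches describe letters and show no binding, and their part in the differences between the groups was not tested.

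Atp2a2 encodes SERCA2, which pumps calcium back into the reticulum (ENSMUSG00000029467, chr5:122453513-122502225 on the minus strand of mm10). Its FPKM in WT replicates 1 to 4 was 3707, 4064, 3759 and 3877, and in RBX2iCKO replicates 1 to 4 it was 2016, 2613, 2506 and 2331. All RBX2iCKO libraries lay below all WT libraries, and replicate 1 was the lowest. The mean fell from 3852 ± 158 to 2367 ± 261.2 FPKM (SD, n = 4 each), which is 61.4% of WT. On the log2 scale it differed by -0.71 (SE 0.09, limma adjusted p = 0.00166), and by -0.96 after scaling (adjusted p = 0.000784). Leaving out any library kept the call, with log2 differences from -0.76 to -0.63. It was -0.95 within the title numbers of the 200s (2 WT and 1 RBX2iCKO library) and -0.62 within those of the 260s (2 WT and 3 RBX2iCKO libraries).

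Pln encodes phospholamban, a small membrane protein that inhibits SERCA2 until it is phosphorylated (ENSMUSG00000038583, chr10:53337667-53345987 on the plus strand). Its FPKM was 2422, 2238, 2529 and 2419 in WT and 1820, 1874, 2010 and 2255 in RBX2iCKO. The first 3 RBX2iCKO libraries lay below all WT libraries, while replicate 4 was slightly above WT replicate 2. The mean fell from 2402 ± 121 to 1990 ± 194 FPKM (SD, n = 4 each), with a log2 difference of -0.28 (SE 0.08, limma adjusted p = 0.0322). This call was lost without WT replicate 1, 3 or 4 or RBX2iCKO replicate 1 or 2, with adjusted p from 0.0624 to 0.0847, and with no filter on low values (adjusted p = 0.164). After scaling the groups did not overlap, the log2 difference was -0.53 (adjusted p = 0.00463), and the call held with any 1 library left out. Pln shares 141 exonic bases with Cep85l on the opposite strand, which was at 3.45 FPKM in WT against 3.50 FPKM in RBX2iCKO.

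Hrc encodes a histidine-rich protein of the reticulum lumen that binds calcium, SERCA2 and triadin (ENSMUSG00000038239, chr7:45335290-45338974 on the plus strand). Its FPKM was 461, 519, 404 and 417 in WT and 305, 314, 325 and 314 in RBX2iCKO. All RBX2iCKO libraries lay below all WT libraries and close to each other, while WT replicates 1 and 2 were higher than 3 and 4. The mean fell from 450 ± 51.8 to 314 ± 8.36 FPKM (SD, n = 4 each), which is 69.8% of WT, with a log2 difference of -0.51 (SE 0.08, limma adjusted p = 0.00349). It was -0.76 after scaling (adjusted p = 0.00227), -0.68 within the 200s and -0.37 within the 260s, and the call held with any 1 library left out.

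Casq2 encodes cardiac calsequestrin, the main calcium buffer of the reticulum lumen (ENSMUSG00000027861, chr3:102086415-102146514 on the plus strand). Its FPKM was 354, 368, 338 and 342 in WT and 478, 450, 394 and 452 in RBX2iCKO. All RBX2iCKO libraries lay above all WT libraries, and replicate 3 was the nearest to them. The mean rose 1.26-fold, from 350 ± 13.5 to 443 ± 35.3 FPKM (SD, n = 4 each), with a log2 difference of 0.34 (SE 0.07, limma adjusted p = 0.00957). As deposited the call held with any 1 library left out. After scaling the difference was 0.08 (95% interval -0.11 to 0.27, adjusted p = 0.537) and the groups overlapped, so the call rests on the deposited scale. With mitochondrial-encoded genes removed and the rest rescaled to the same FPKM sum, it was 0.14 (adjusted p = 0.338). The level of Casq2 as deposited thus moved opposite to that of Hrc, which shares its compartment. In WT every Hrc value was above every Casq2 value, and in RBX2iCKO every Casq2 value was above every Hrc value.

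The 3 transcripts of the release unit had lower means without passing as deposited, and passed after scaling. Ryr2 encodes the ryanodine receptor, the calcium release channel (ENSMUSG00000021313, chr13:11553102-12106945 on the minus strand). Its FPKM was 120, 153, 115 and 120 in WT and 104, 101, 136 and 87.1 in RBX2iCKO. WT replicate 2 was the highest of all 8 libraries, and RBX2iCKO replicate 3 lay above 3 of the WT libraries. RBX2iCKO minus WT was -0.26 on the log2 scale (SE 0.14, limma adjusted p = 0.166), and -0.51 after scaling (adjusted p = 0.0432). As deposited it passed only without RBX2iCKO replicate 3 (adjusted p = 0.0296). After scaling it again passed without that library (adjusted p = 0.0105), and it did not pass when any of the other 7 was left out.

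Trdn encodes triadin, which anchors calsequestrin to the release channel (ENSMUSG00000019787, chr10:33080554-33476709 on the plus strand). Its FPKM was 63.3, 70.3, 59.3 and 55.4 in WT and 56.9, 44.9, 49.7 and 58.7 in RBX2iCKO. RBX2iCKO replicates 1 and 4 lay within the WT range, and replicates 2 and 3 below it. On the log2 scale the groups differed by -0.24 (limma adjusted p = 0.0950), and -0.49 after scaling (adjusted p = 0.0228), where the groups did not overlap. The scaled call was lost without WT replicate 1, WT replicate 2 or RBX2iCKO replicate 2, with adjusted p of at most 0.0581.

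Jph2 encodes junctophilin, which holds the reticulum next to the transverse tubule (ENSMUSG00000017817, chr2:163336242-163397993 on the minus strand). Its FPKM was 144, 170, 154 and 142 in WT and 111, 170, 123 and 132 in RBX2iCKO. RBX2iCKO replicate 2 was nearly as high as the highest WT library, and the other RBX2iCKO libraries lay below all WT libraries. The log2 difference was -0.20 (limma adjusted p = 0.212), and -0.46 after scaling (adjusted p = 0.0380). Without RBX2iCKO replicate 2 it passed on both scales, with adjusted p = 0.0353 as deposited and 0.0177 after scaling. With any other library left out it passed on neither.

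The L-type channel subunits differed little as deposited. Cacna1c encodes the pore of the channel (ENSMUSG00000051331, chr6:118587240-119196418 on the minus strand). Its FPKM was 30.8, 34.2, 30.9 and 30.8 in WT and 33.3, 33.6, 42.6 and 32.9 in RBX2iCKO. RBX2iCKO replicate 3 was far above the others, and WT replicate 2 lay within the RBX2iCKO range. Its log2 difference was 0.16 (95% interval -0.05 to 0.36, limma adjusted p = 0.189), and -0.09 after scaling (adjusted p = 0.573), so its sign turned with the scale.

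Cacnb2 encodes the beta subunit that brings the pore to the membrane (ENSMUSG00000057914, chr2:14603088-14987908 on the plus strand). Its FPKM was 20.4, 21.5, 19.5 and 22.2 in WT and 21.7, 19.9, 17.7 and 19.7 in RBX2iCKO. The groups overlapped, with only RBX2iCKO replicate 3 below all WT libraries. The log2 difference was -0.08 (limma adjusted p = 0.432), and -0.32 after scaling (adjusted p = 0.0235). The scaled call was lost without WT replicate 2, WT replicate 4 or RBX2iCKO replicate 2, with adjusted p of at most 0.0597.

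Slc8a1 encodes the sodium-calcium exchanger of the cell membrane (ENSMUSG00000054640, chr17:81373105-81738377 on the minus strand). Its FPKM was 82.3, 105, 72.7 and 72.8 in WT and 101, 94.1, 72.4 and 84.2 in RBX2iCKO. Both groups spread over nearly the same range, with WT replicate 2 the highest and RBX2iCKO replicate 3 the lowest. Its log2 difference was 0.08 (95% interval -0.23 to 0.39, limma adjusted p = 0.654), and -0.17 after scaling (95% interval -0.52 to 0.18, adjusted p = 0.473). Both intervals span a fall and a rise, so no direction can be given with 4 libraries a group.

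**Figure D2:**
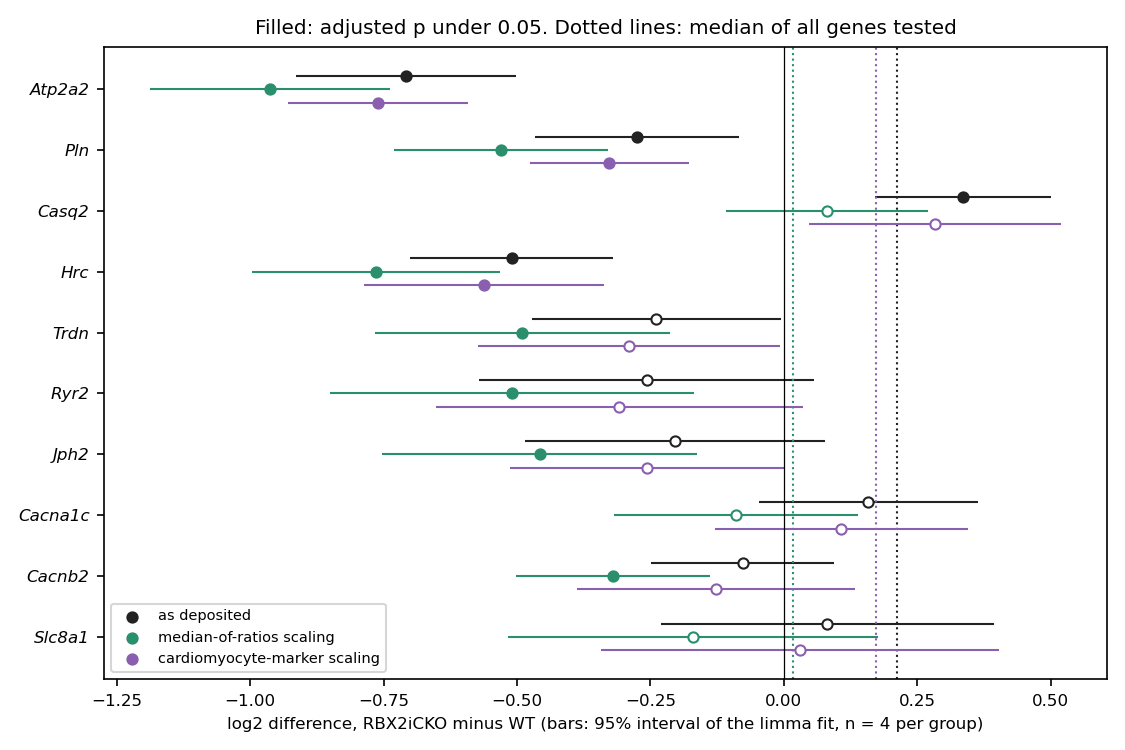
Log2 difference of RBX2iCKO minus WT for the 10 transcripts (horizontal axis) on the deposited scale (black), after median-of-ratios scaling (green) and after scaling to cardiomyocyte markers (purple), with 95% intervals of the limma fit; filled points have an adjusted p under 0.05 and dotted lines mark the median of all genes. Atp2a2, Pln and Hrc are filled and negative on all 3 scales, while Casq2 is filled only as deposited, at 0.34.

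In WT ventricles the FPKM levels descended from Atp2a2 over Pln, Hrc, Casq2, Jph2, Ryr2, Slc8a1, Trdn and Cacna1c to Cacnb2. The means ran from 3852 FPKM for the pump to 20.9 FPKM ± 1.19 for Cacnb2 (SD, n = 4). Of the neighbours in this order, only Jph2 and Ryr2 had overlapping WT ranges. In RBX2iCKO the ranges of Atp2a2 and Pln overlapped, as did those of Jph2 and Ryr2 and of Ryr2 and Slc8a1. The order depends on the gene length behind the FPKM, which was recovered from the values. For Slc8a1 that length was 2913 bases, against 18807 bases of annotated exon. On the annotated length its WT mean would be 12.9 FPKM, and it would rank 9 of 10. Each member had from 1349 to 392777 fragments in a library, and counting error was at most 2.72% of the lowest value of any member.

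Ratios of members within a library do not change with any scaling. Pln to Atp2a2 was 0.653, 0.551, 0.673 and 0.624 in WT and 0.903, 0.717, 0.802 and 0.967 in RBX2iCKO. Every RBX2iCKO library had more inhibitor transcript per pump transcript than every WT library. The mean ratio was 0.625 ± 0.0536 in WT against 0.847 ± 0.110 in RBX2iCKO (SD, n = 4 each), 1.35-fold higher by the log2 difference of 0.43. A two-sided exact permutation test gave p = 0.0286, the lowest possible with 70 assignments, and 0.0857 after adjustment over 6 ratios.

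The ratio of exchanger to pump, Slc8a1 to Atp2a2, was 0.0222, 0.0259, 0.0194 and 0.0188 in WT and 0.04997, 0.0360, 0.0289 and 0.0361 in RBX2iCKO. All RBX2iCKO libraries lay above all WT libraries, with replicate 1 the highest. It was 1.73-fold higher (log2 0.79, exact permutation p = 0.0286, adjusted p = 0.0857). In both ratios the pump fell and the difference of the partner was smaller, so both rest on Atp2a2. Within the 260s alone the log2 differences were 0.34 for Pln to Atp2a2 and 0.81 for Slc8a1 to Atp2a2.

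Calsequestrin per release channel, Casq2 to Ryr2, was 2.94, 2.40, 2.94 and 2.86 in WT and 4.599, 4.46, 2.90 and 5.19 in RBX2iCKO. Replicate 3 of RBX2iCKO lay within the WT range and the other RBX2iCKO libraries lay well above it (log2 0.60, exact permutation p = 0.0857, adjusted p = 0.129). Triadin per release channel was nearly the same in the groups on average, at 0.491 ± 0.0354 in WT against 0.508 ± 0.133 in RBX2iCKO (SD, n = 4 each), with a wider spread in RBX2iCKO. Cacnb2 to Cacna1c was 0.660 ± 0.0427 in WT and 0.565 ± 0.102 in RBX2iCKO, and Jph2 to Cacna1c was 4.82 ± 0.201 and 3.81 ± 0.945. Their exact permutation p was 0.0857 and 0.143. None of the 6 ratios passed after adjustment. Pln to Atp2a2 and Slc8a1 to Atp2a2 were at the lowest possible exact permutation p, 0.0286, which adjustment brought to 0.0857. They could not have passed unless more of the ratios had reached that p.

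**Figure D3:**
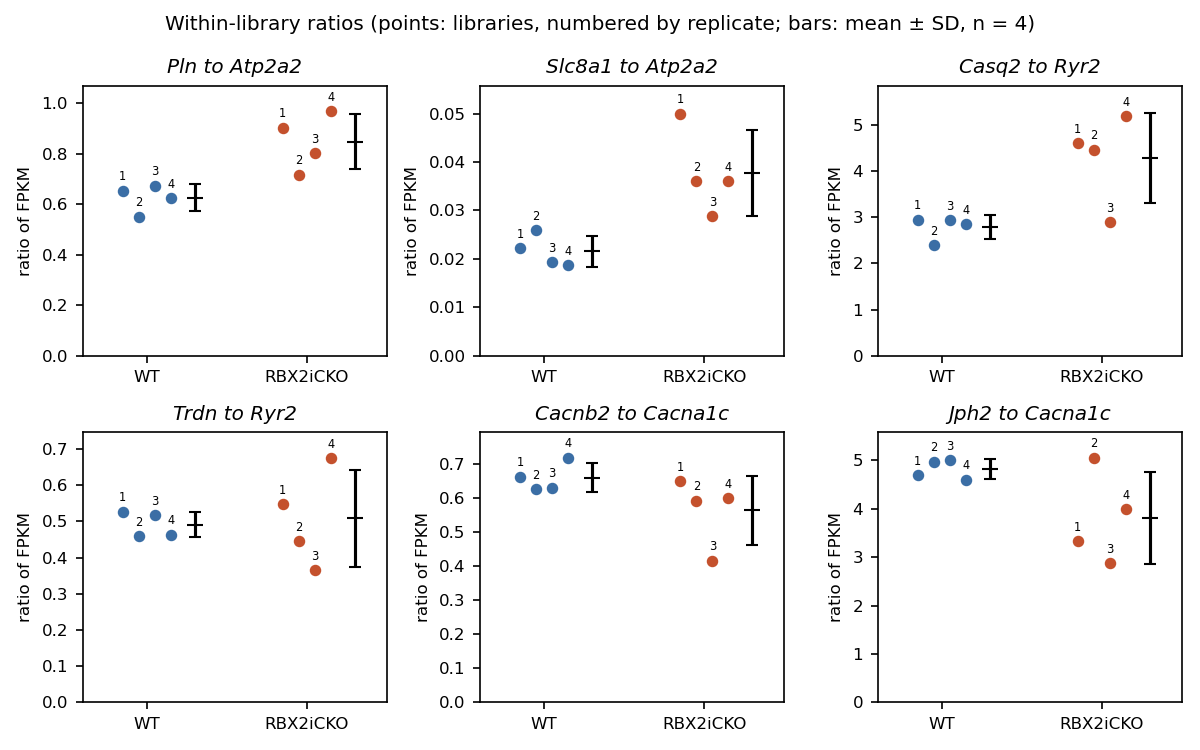
Ratios of FPKM within each library (vertical axis, from 0) for 6 pairs of calcium cycling transcripts, with WT in blue, RBX2iCKO in orange, points numbered by replicate and bars for the mean ± SD. Pln to Atp2a2 and Slc8a1 to Atp2a2 separate the groups fully, with means of 0.625 against 0.847 and 0.0216 against 0.0377.

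Other genes of calcium handling were counted in 8 lists, of which 83 genes passed the filter. Of these, 28 were higher and 6 lower as deposited, and 9 were higher and 21 lower after scaling. Over all genes tested, 33.5% were higher and 3.52% lower as deposited, and 8.78% higher and 10.9% lower after scaling. The count of higher genes as deposited was near the share over all genes and is no result about these lists, and no test compared the lists with other genes. Their median log2 difference was 0.18 as deposited and -0.06 after scaling, against 0.21 and 0.02 over all genes. With any 1 library left out, 20 of the 34 genes called as deposited and 17 of the 30 called after scaling kept their call in all 8 fits.

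Of 8 genes tested in the list of SERCA pumps and their small regulators, 2 were higher and 1 was lower as deposited. Over all genes the shares were 33.5% higher and 3.52% lower. S100a1, a calcium sensor that binds SERCA2 and the ryanodine receptor, rose from 478 ± 25.8 to 673 ± 60.2 FPKM (SD, n = 4 each; log2 0.49, limma adjusted p = 0.00346), and had an adjusted p of 0.0711 after scaling. Hax1, which binds phospholamban, rose by 0.34 on the log2 scale as deposited, with 0.10 and an adjusted p of 0.473 after scaling. Its deposited call was lost without WT 2 or 4 or RBX2iCKO 2 or 3 (limma adjusted p 0.0555 to 0.0784). Tmem38a, a potassium channel of the reticulum that balances charge during release, fell from 211 ± 9.11 to 178 ± 19.3 FPKM (SD, n = 4 each; log2 -0.25, adjusted p = 0.0462; scaled -0.50, adjusted p = 0.00671). After scaling 0 were higher and 3 lower, beside 8.78% and 10.9% over all genes on that scale. The 3 were Tmem38a with Srl, which encodes luminal sarcalumenin, and Tmem38b. The deposited call of Tmem38a was lost without any 1 WT library or RBX2iCKO 1 or 4 (adjusted p 0.0645 to 0.104), while its scaled call held in all 8 such fits. The scaled call of Srl was lost in all 8 fits (0.0589 to 0.106) and that of Tmem38b in 6, holding without WT 4 or RBX2iCKO 3. Sln, encoding the SERCA inhibitor sarcolipin of atria, spread over 0 to 58.3 FPKM in WT libraries and over 0.101 to 146 FPKM in RBX2iCKO libraries, with no call (adjusted p = 0.768).

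Of 15 release and junction genes tested, 7 were higher and 1 was lower as deposited, and 2 of each after scaling. Over all genes 33.5% were higher and 3.52% lower as deposited, and 8.78% and 10.9% after scaling. Sri, encoding sorcin, which binds the ryanodine receptor, rose from 13.0 ± 1.36 to 18.4 ± 1.04 FPKM (SD, n = 4 each; log2 0.47, limma adjusted p = 0.00477; scaled 0.23, adjusted p = 0.0466). Its deposited call held with any 1 library left out, and its scaled call held only without RBX2iCKO 3 (otherwise 0.0750 to 0.110). Jsrp1, a junctional protein known from skeletal muscle, rose from 0.513 to 1.22 FPKM and also passed after scaling. Itpr2, an inositol trisphosphate receptor, and Asph, the gene of junctin, rose 1.49-fold and 1.22-fold as deposited but missed the threshold once scaled. Jph1, a relative of Jph2, fell from 6.23 to 4.999 FPKM and passed on both scales, although its deposited call held only without WT 3 or RBX2iCKO 3 (otherwise limma adjusted p 0.0501 to 0.0588). Of the most abundant genes, Calm2, a calmodulin gene, rose from 69.5 to 88.3 FPKM as deposited (adjusted p = 0.0480) and stood at 0.09 after scaling (adjusted p = 0.581). That call was lost in 6 of 8 fits with 1 library left out (adjusted p 0.0539 to 0.117), holding without WT 4 or RBX2iCKO 3. Calr, encoding calreticulin, was 115 FPKM in WT against 103 FPKM in RBX2iCKO and passed as lower after scaling.

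The L-type list held the largest differences. Gem, encoding a small GTPase of a family that inhibits L-type channels, had FPKM values of 2.15, 1.38, 1.21 and 1.90 in WT and of 6.38, 5.26, 8.71 and 3.85 in RBX2iCKO. All RBX2iCKO libraries lay above all WT libraries. It rose 3.64-fold (log2 1.37, limma adjusted p = 0.00252; scaled 1.19, adjusted p = 0.00446). Rrad, a more abundant member of the same family, was 99.0 FPKM ± 21.1 in WT against 104 FPKM ± 14.0 in RBX2iCKO (SD, n = 4 each, adjusted p = 0.697).

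Cacna1s, the pore of the skeletal muscle channel, fell 2.69-fold from a low level, from 3.32 to 1.24 FPKM (log2 -0.94, limma adjusted p = 0.00440; scaled -1.11, adjusted p = 0.00420). Cacng6, a gamma subunit, was the other lower gene of the 11 tested, with overlapping groups and an adjusted p of 0.0459. Cacnb3, another beta subunit, and Cacng7 rose 2.30-fold and 1.86-fold, also from low levels, and Cacnb1 rose as well. These 4 higher and 2 lower genes passed on both scales. Shares over all genes were 33.5% and 3.52% as deposited, and 8.78% and 10.9% after scaling. After scaling 1 more gene was lower, Cacna2d1, an auxiliary subunit, at 34.3 FPKM in WT against 32.1 FPKM in RBX2iCKO (log2 -0.09, adjusted p = 0.333 as deposited; scaled -0.34, adjusted p = 0.0276). Gem, Cacna1s and Cacnb3 kept both calls with any 1 library left out. The calls of Cacng6 were lost on both scales in 6 of 8 such fits (up to 0.112), holding without WT 3 or RBX2iCKO 4. The scaled calls were lost for Cacng7 without WT 2, 3 or 4 or RBX2iCKO 2 (0.0606 to 0.0808), for Cacnb1 in 6 fits (0.0561 to 0.105), holding without WT 1 or RBX2iCKO 4, and for Cacna2d1 without WT 2 or 3 or RBX2iCKO 2 (0.0635 to 0.0670). Ahnak, a large scaffold protein that binds the beta subunit, did not pass (adjusted p = 0.0574).

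Fxyd1, of the extrusion and sodium pump list, encodes phospholemman, a small membrane protein that also acts on the exchanger. It stood at 273 FPKM ± 26.0 in WT against 279 FPKM ± 21.4 in RBX2iCKO (SD, n = 4 each), with overlapping groups and no call on either scale (limma adjusted p = 0.808 as deposited and 0.0795 after scaling).

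Of 19 kinase and phosphatase genes tested, 5 were higher and 0 lower as deposited, and 2 were higher and 5 lower after scaling. The shares over all genes were 33.5% and 3.52% as deposited, and 8.78% and 10.9% after scaling. Rcan1, an inhibitor of calcineurin that calcineurin itself induces, rose from 25.5 ± 0.752 to 37.7 ± 3.49 FPKM (SD, n = 4 each; log2 0.54, limma adjusted p = 0.00214; scaled 0.30, adjusted p = 0.0237). Prkar1a, a regulatory subunit of protein kinase A, rose from 145 ± 10.8 to 218 ± 21.6 FPKM (SD, n = 4 each; log2 0.59, adjusted p = 0.00253; scaled 0.34, adjusted p = 0.0176). Both passed on both scales, and as deposited both held with any 1 library left out. After scaling the call of Rcan1 was lost without WT 1, 3 or 4 or RBX2iCKO 1 or 2 (limma adjusted p 0.0512 to 0.0663), and that of Prkar1a without RBX2iCKO 2 (0.0513). Ppp1ca, a catalytic subunit of protein phosphatase 1, rose by 0.22 on the log2 scale as deposited and was at -0.03 after scaling. Prkacb, a catalytic subunit of protein kinase A, and Ppp3ca, a catalytic subunit of calcineurin, were the other higher genes as deposited, and both calls held only without RBX2iCKO 3 (otherwise up to 0.0934 and 0.0932).

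Of 9 transverse tubule genes tested, 3 were higher as deposited, and after scaling 2 were lower, Tcap and Mtm1. Over all genes 33.5% were higher as deposited and 10.9% lower after scaling. Bin1, which shapes the tubule, rose from 3.33 to 4.99 FPKM (limma adjusted p = 0.0265; scaled 0.27, adjusted p = 0.154). That call was lost without WT 2 or 3 or RBX2iCKO 1 or 2 (adjusted p 0.0559 to 0.0693). Ehd4 and Ehd1, membrane trafficking genes, rose 1.247-fold and 1.17-fold as deposited, while after scaling none of the 3 passed and Ehd1 was at -0.03. The deposited call was lost for Ehd4 without WT 1, 2 or 4 or RBX2iCKO 2 or 4 (0.0680 to 0.0842), and for Ehd1 without any 1 WT library or RBX2iCKO 3 or 4 (0.0706 to 0.113). Tcap, encoding telethonin, was 1713 FPKM ± 196 in WT against 1581 FPKM ± 215 in RBX2iCKO (SD, n = 4 each), and its scaled call held only without RBX2iCKO 3 (otherwise limma adjusted p 0.0520 to 0.104). Popdc2, a membrane protein that binds cyclic AMP, did not pass on either scale.

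Of the genes of mitochondrial calcium transport, Micu2, a gatekeeper of the uniporter, rose 1.22-fold as deposited, and Slc8b1, the mitochondrial sodium-calcium exchanger, 1.41-fold, a call lost without WT 2 or RBX2iCKO 2 (limma adjusted p 0.0533 and 0.0585). Neither passed after scaling, while Mcu, the pore of the uniporter, and Letm1 passed as lower on that scale. Smdt1, an essential subunit of the uniporter, was 93.7 FPKM in WT against 114 FPKM in RBX2iCKO, with no call on either scale.

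Of 6 genes of store-operated entry, 4 were higher and 1 was lower as deposited, beside 33.5% and 3.52% over all genes. After scaling 1 was higher and 2 were lower, beside 8.78% and 10.9% over all genes. Saraf, encoding an inhibitor of store-operated entry, fell from 121 ± 9.16 to 92.1 ± 10.6 FPKM (SD, n = 4 each; log2 -0.39, limma adjusted p = 0.0129; scaled -0.64, adjusted p = 0.00268), with all RBX2iCKO below all WT libraries. The calcium sensor gene Stim1 and the channel genes Orai1 and Orai2 rose as deposited, by 1.42-fold, 1.39-fold and 2.69-fold, and Stim2 rose too, a call that held only without RBX2iCKO 3 (otherwise limma adjusted p 0.0695 to 0.0997). Only Orai2, at 0.456 FPKM in WT against 1.23 FPKM in RBX2iCKO, passed as higher after scaling. Orai3 was 9.73 FPKM in WT against 9.20 FPKM in RBX2iCKO, and passed as lower after scaling, a call lost without WT 1, 2 or 3 or RBX2iCKO 1 or 4 (0.0622 to 0.0826).

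**Figure D4:**
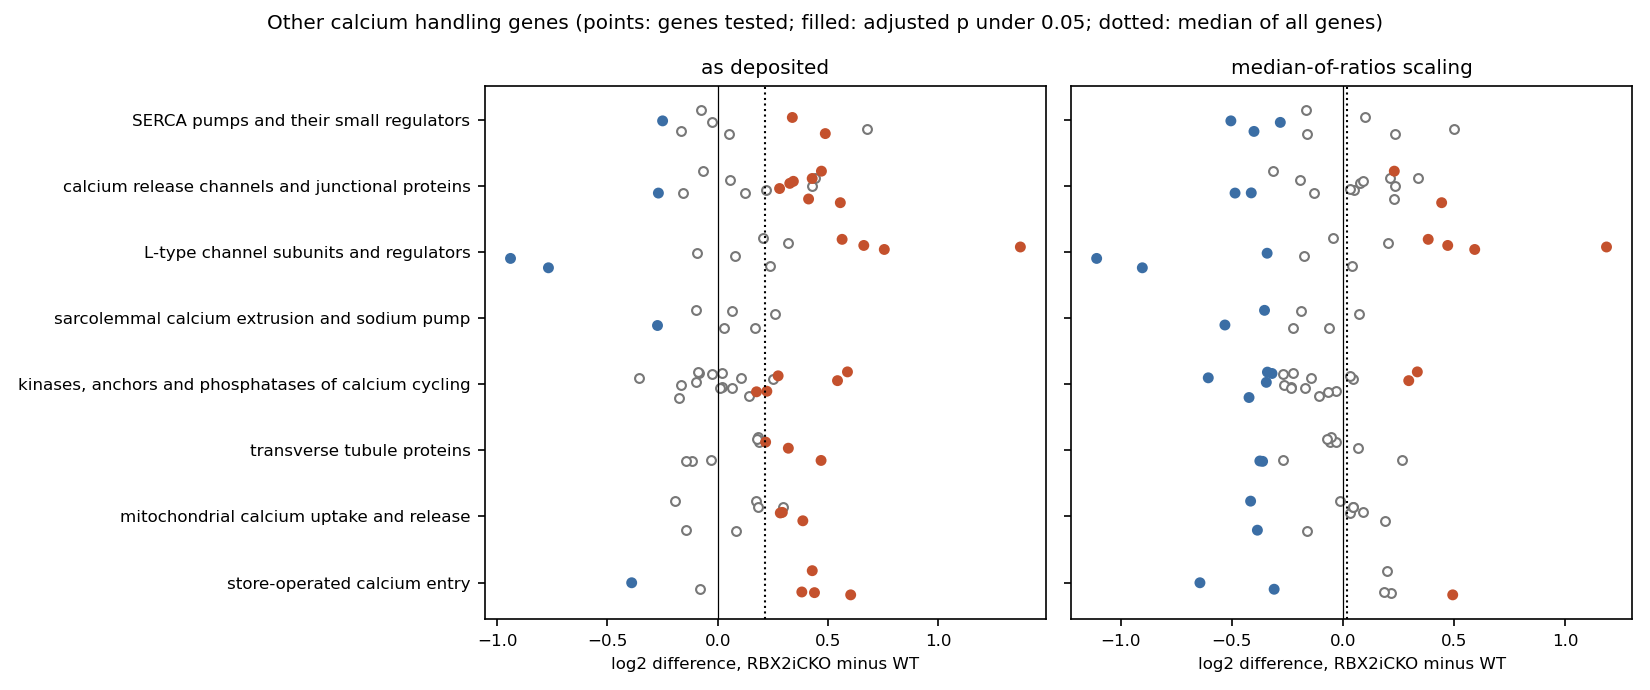
Log2 difference of RBX2iCKO minus WT (horizontal axis) for 83 other calcium handling genes in 8 lists, as deposited (left) and after median-of-ratios scaling (right), with orange and blue points for genes past the threshold, open points for the rest and a dotted line at the median of all genes. As deposited 28 points are orange and 6 blue, and after scaling 9 are orange and 21 blue, with Gem farthest to the right in both.

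The 5 genes outside these lists whose profile over the 8 libraries lay nearest to that of Atp2a2, of 4254 candidates, were Rpl3l, Gpt, Asb15, Nadk2 and Sord. Their Euclidean distances were 0.251, 0.283, 0.286, 0.286 and 0.304 on the log2(FPKM + 1) scale relative to each WT mean. Rpl3l, a ribosomal protein gene of striated muscle, was nearest, at 159 FPKM ± 6.66 in WT against 91.3 FPKM ± 9.25 in RBX2iCKO (SD, n = 4 each). Gpt, an alanine aminotransferase gene, stood at 20.1 and 12.2 FPKM, and Sord, encoding sorbitol dehydrogenase, at 85.5 and 57.4 FPKM. Like Atp2a2, the 4 RBX2iCKO libraries lay below the 4 WT libraries for all 5 genes, which the choice by profile fixes.

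Markers of other cells were set beside the member results. Of 12 ventricular cardiomyocyte markers 3 were higher (Tnnc1, Actc1 and Mybpc3) and 1 was lower (Tnni3) as deposited, with a median log2 difference of 0.04, beside shares of 33.5% higher and 3.52% lower over all genes. After median-of-ratios scaling 0 were higher and 2 lower (Tnni3 and Fabp3), with a median of -0.21, beside 8.78% and 10.9% over all genes. When the libraries were scaled to these 12 markers, a scale added after the data were seen, Atp2a2 stood at -0.76 (limma adjusted p = 0.000584), Pln at -0.33 (adjusted p = 0.0123) and Hrc at -0.56 (adjusted p = 0.00794). These 3 were the only members called on that scale, on which 3.29% of all genes were lower and 14.8% higher (18.1% in all). Casq2 stood at 0.28 (adjusted p = 0.0849).

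The fibroblast markers were higher on the deposited scale for 9 of 9 genes and for 8 after scaling. Of 8 endothelial markers 4 were higher as deposited and 0 after scaling, with sums of 161 to 216 FPKM in WT and 207.9 to 263 FPKM in RBX2iCKO. Of 8 macrophage markers 3 were higher as deposited (Adgre1, C1qb and Fcgr1) and 1 after scaling (Fcgr1), with sums of 118 to 173 FPKM and 120 to 286 FPKM. Of 8 smooth muscle and pericyte markers 1 was higher (Pdgfrb) and 1 lower (Abcc9) on both scales, with sums of 292 to 376 FPKM and 237 to 398 FPKM. Over all genes 33.5% were higher and 3.52% lower as deposited, and 8.78% higher and 10.9% lower after scaling. The part of these cells in the member results was not tested beyond the scaling to cardiomyocyte markers.

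The 7 atrial markers summed to 20.5 to 415 FPKM in WT and 418 to 1135 FPKM in RBX2iCKO. Of these, 2 were higher as deposited (Nppa and Dkk3) and 1 after scaling (Nppa), beside 33.5% and 8.78% over all genes. Bmp10 was at 0 in all 4 WT libraries. In RBX2iCKO replicates 1 to 4 it was 0, 7.25, 0.0394 and 5.76 FPKM (limma adjusted p = 0.109). Nppa, encoding atrial natriuretic peptide, carried the separation of the sums, at 10.5 FPKM in WT against 384 FPKM in RBX2iCKO (limma adjusted p = 0.000388). Without it the sums overlapped, at 17.0 to 396 FPKM and 25.8 to 719 FPKM, and Myl7 (adjusted p = 0.900), Myl4 (0.726), Sln (0.768) and Stard10 (0.923) had no call. The 8 skeletal muscle markers summed to 1.75 to 2.45 FPKM and 5.44 to 8.38 FPKM, with Myh4 and Tnnc2 at 0 in all 8 libraries. Only 3 of them passed the filter. Of those, 2 were higher as deposited and 1 after scaling, beside 33.5% and 8.78% over all genes. Tnnt3, encoding a fast skeletal troponin T, carried the separation of these sums, at 0.265 FPKM against 4.501 FPKM (adjusted p = 0.000416), and was the only one called after scaling. Without it these sums overlapped too, at 1.46 to 2.13 FPKM and 1.48 to 3.20 FPKM, with Mylpf also called higher as deposited (0.531 against 0.916 FPKM, adjusted p = 0.0446) and Tnni2 at an adjusted p of 0.999. Mitochondrial-encoded transcripts, which share the denominator of every FPKM, took 23.8% ± 1.04 of fragments in WT against 16.9% ± 2.06 in RBX2iCKO (SD, n = 4 each). With these genes removed and the rest rescaled to the former FPKM sum of each library, 6 members were lower and 0 higher. Over all genes that fit gave 988 lower and 1266 higher. It works on FPKM sums, not on the fragment shares above.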

How the data were processed

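RNA was taken from minced ventricles, per the labels' protocols. The authors deposited FPKM values (fragments per kilobase of gene, relative to the fragments counted in the library) for 35275 genes in 8 columns, 1 per library, on mm10 per the submitters' processing notes. The sources used here name no aligner, counter, annotation or strand setting. Groups follow the genotype label, and replicates were numbered within it. No label says that each library is another mouse, so the spread behind the p-values may be technical.

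Symbols and positions come from GENCODE M21, which matched 34490 identifiers (97.8%), and promoter windows from RefSeq on GRCm38.p6. Fragments were recovered from the steps of low FPKM values. With a tolerance of 0.01, 100% of tested genes gave whole fragments, after a length was fitted for each gene. The annotated length gave them for only 10.2%.

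Values were tested as log2(FPKM + 1) with limma 3.58.1 in R 4.3.3 (lmFit, eBayes with trend, two-sided) over the 13050 genes with a mean of at least 0.5 FPKM, adjusted by Benjamini-Hochberg and called under 0.05. Log2 differences are on that scale, which understates low genes, and fold values are ratios of mean FPKM. Only folds of the within-library ratios come from their log2 differences. Median-of-ratios factors were 0.859 to 0.945 in WT and 1.07 to 1.12 in RBX2iCKO. Ratios were compared by an exact permutation test over 70 assignments. The test was checked on simulated data with spread taken from the WT libraries. It recovered 12% of 50 genes changed 1.25-fold, 80% at 1.5-fold, 98% at 2-fold and 94% at 4-fold, with 6 false calls. At 1.25-fold most of the 50 genes were thus missed in the simulated data, and recovery in the deposited data was not tested. Members and lists were chosen with earlier results of these data known. Of 96 genes in the pathway lists, Strit1 was not matched and 12 were under the filter. Named list genes are up to 4 past the threshold with the smallest p and the 2 of highest mean. Some genes that this rule takes are not reported here. Sln, Cacnb1, Cacng6, Cacna2d1, Jph1, Ppp3ca, Stim2, Tmem38b, Mtm1, Mcu and Letm1 were named after their values were seen. Alternatives were the pseudocount, the filter, scaling, removal of mitochondrial-encoded genes, the title-number series as a covariate, robust eBayes, voom on recovered fragments and leaving out each library, on both scales.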

Additional observations from a re-analysis of the deposited data

Results flagged for a closer look

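For 104 sets of 4 libraries, the gap between the most distant library and its nearest neighbour was set against the whole range. In 7 sets a library stood apart, where chance flags about 1 in 20 groups, here about 5.2, so the number carries no weight. Ryr2 was at 153.4 FPKM in WT replicate 2, against 115 to 120 in the other WT libraries. The ratio of Casq2 to Ryr2 was 2.398 in the same library, against 2.86 to 2.94. Cacna1c was at 34.19 FPKM in WT replicate 2, against 30.8 to 30.9. It was at 42.6 FPKM in RBX2iCKO replicate 3, against 32.9 to 33.6 in the other RBX2iCKO libraries. Sri was lowest in WT replicate 2, at 10.98 FPKM against 13.6 to 13.9. Saraf was highest in WT replicate 3, at 134.3 FPKM against 115 to 118. Jsrp1 was lowest in RBX2iCKO replicate 4, at 1.008 FPKM against 1.29 to 1.31.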

How the results depend on the processing

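No paired analysis was possible because the title numbers of the labels differ in every library, so the groups share no replicate numbers. Atp2a2 and Hrc passed as lower under every alternative run. Over 250 values of the 10 members under alternatives, 192 kept their direction and side of the threshold, 21 newly passed, 17 no longer passed and 20 moved. The cause of these changes was not tested.

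Median-of-ratios scaling gave 1146 higher and 1419 lower genes in place of 4374 and 459, 0 higher and 7 lower members, and 9 higher and 21 lower list genes in place of 28 and 6. Removal of mitochondrial-encoded genes gave 1266 and 988 genes, 0 and 6 members, and 9 and 14 list genes. Scaling to cardiomyocyte markers, chosen after seeing the data, gave 1929 higher genes, 0 higher members and 12 higher list genes. A filter at 5 FPKM gave 2478 higher genes and 18 higher list genes among fewer genes tested, and no filter gave 3 lower list genes.

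Without 1 library the fit gave 2895 to 4386 higher (lowest without WT replicate 2) and 327 to 452 lower genes, 1 higher and 2 to 4 lower members, and 19 to 29 higher and 2 to 5 lower list genes. After scaling, leaving out 1 library gave 672 to 1371 higher and 974 to 1460 lower genes, 0 higher and 3 to 6 lower members, and 4 to 10 higher and 13 to 21 lower list genes. Across these fits the log2 difference of Trdn to Ryr2 ran from -0.13 to 0.16, that of Pln to Atp2a2 from 0.37 to 0.51 and that of Slc8a1 to Atp2a2 from 0.65 to 0.91.

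Some list genes changed sign once scaled, while Asph, Ehd4, Micu2 and Prkacb turned only in scaled fits that left out 1 library. Ahnak, Popdc2 and Rrad, among others without a call as deposited, also took both signs over the alternatives. Ppp1ca stood at -0.0302 after scaling and ran from -0.0505 to 0.25 over all fits that left out 1 library, and Ehd1 at -0.0311 and from -0.0813 to 0.25. Over the same fits Asph ran from -0.0118 to 0.31, Ehd4 from -0.0024 to 0.40, Micu2 from -0.0078 to 0.32 and Prkacb from -0.0111 (also -0.0091) to 0.36. Fxyd1 ran from -0.28 (after scaling without RBX2iCKO replicate 3, limma adjusted p = 0.0396) to 0.081.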
